A study of Mus musculus with 18 samples.

Results

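The glutathione and antioxidant genes of mouse 10T1/2 cells were measured by bulk RNA sequencing in wild-type (WT) cells and in 2 FOXS1 knockout (KO) clones. The set was defined by gene name and not by a threshold on measured values, but with earlier results of these data known. It holds 48 protein-coding genes of the 54532 genes in the count table, namely every gene of the *Gsta*, *Gstm*, *Gsto*, *Gstp*, *Gstk*, *Gstt* and *Gstz* families (22 genes), the glutathione peroxidases *Gpx1* to *Gpx8* (8), the peroxiredoxins *Prdx1* to *Prdx6* (6) and *Nfe2l2*, *Keap1*, *Nqo1*, *Gclc*, *Gclm*, *Gsr*, *Gss*, *Txn1*, *Txnrd1*, *Srxn1*, *Slc7a11* and *Sod1*. 10T1/2 is a mouse embryonic mesenchymal cell line that can be turned toward adipocytes or toward contractile, matrix-forming myofibroblasts, and FOXS1 is a forkhead transcription factor. The study asked how loss of FOXS1 alters the early transcriptional response when a profibrotic signal is followed by adipogenic medium.

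There were 18 libraries in 6 groups of 3. WT cells, KO clone 1 and KO clone 2 were each either uninduced or stimulated, and stimulated cells received 1 nM TGF-β1 for 12 h followed by DMII, an adipogenic medium with insulin, indomethacin, dexamethasone and the phosphodiesterase inhibitor 3-isobutyl-1-methylxanthine, for 48 h. No group used here received TGF-β1 alone or DMII alone, so their effects cannot be told apart. Each KO clone grew from a single edited cell after cotransfection of Cas9 vectors with gRNAs against *Foxs1* and puromycin selection, so that a difference between a clone and WT cannot be told apart from differences of that clone unrelated to FOXS1. The same 6 WT libraries served both clones, and the labels do not state whether the libraries of a group came from separate cultures, so that p-values measure only the spread between these libraries.

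The transcription factor NRF2, encoded by *Nfe2l2*, is held at low protein level by the ubiquitin ligase adaptor KEAP1. Oxidants and electrophiles disable KEAP1, and NRF2 then binds antioxidant response elements (AREs) together with small MAF proteins. Its known targets include genes for cystine uptake (*Slc7a11*), glutathione synthesis (*Gclc*, *Gclm*), quinone reduction (*Nqo1*), the thioredoxin system (*Txnrd1*, *Srxn1*) and many glutathione transferases, which join glutathione to electrophiles. In fibroblasts, TGF-β1 is known to lower glutathione synthesis and to raise reactive oxygen species.

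The ARE core is shown first because NRF2 binds AREs. RefSeq promoter windows of GRCm38.p6, each 300 bases long (250 before and 50 after a transcription start), matched 43 of the 48 genes by symbol, and those of *Prdx6*, *Gsr*, *Gclc*, *Gsta4* and *Gstt2* were not analysed here. The core TGACNNNGC, searched on both strands, was present in 9 of these 43 genes (20.9%) and in 14.0% of all 27025 genes with a window. The 9 were *Nfe2l2*, *Gclm*, *Txnrd1*, *Srxn1*, *Prdx1*, *Sod1*, *Gsta3*, *Gstm5* and *Gstm7*. With an A following it, the core was present in 2 of them, *Txnrd1* and *Gsta3*, and in 3.45% of all genes. The related AP-1 motif TGANTCA, which can overlap an ARE, was present in 5 of 43 (11.6%) and in 8.97% of all genes. The matched core is in capitals in 5 windows of 29 bases, each written 5′ to 3′ on the strand of its gene, where a core lying on the opposite strand reads as its reverse complement. These are matches of letters only, and sequence outside the promoter windows was not searched.
*Gsta3*, chr1:21240454-21240482, plus strand: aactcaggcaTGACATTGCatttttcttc
*Gclm*, chr3:122245413-122245441, plus strand: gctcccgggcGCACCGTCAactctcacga
*Srxn1*, chr2:152105542-152105570, plus strand: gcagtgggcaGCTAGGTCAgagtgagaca
*Txnrd1*, chr10:82859104-82859132, plus strand: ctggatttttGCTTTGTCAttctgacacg
*Prdx1*, chr4:116685456-116685484, plus strand: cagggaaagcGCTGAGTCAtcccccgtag

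The 250 bases before the start of *Slc7a11* and *Nqo1* are shown because these were the well-counted genes called higher in both stimulated clones, and those of *Gstm4* because its RNA was nearly absent from both clones. None of the 3 windows held TGACNNNGC or TGANTCA. The *Slc7a11* window held 2 matches to TGATGNAA, the core of the amino acid response element bound by the stress factor ATF4, with first bases 66 and 47 bases before the start. This motif was searched after the sequence had been seen. It was present in 4.51% of all genes and in no other of the 43, and it is in capitals below. All 3 genes lie on the minus strand.
*Slc7a11*, chr3:50443614-50443863, minus strand: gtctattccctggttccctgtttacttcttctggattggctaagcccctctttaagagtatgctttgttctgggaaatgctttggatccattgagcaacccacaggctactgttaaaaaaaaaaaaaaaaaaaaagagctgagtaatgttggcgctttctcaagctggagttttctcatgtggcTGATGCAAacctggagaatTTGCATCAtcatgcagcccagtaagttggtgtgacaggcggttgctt
*Nqo1*, chr8:107403206-107403455, minus strand: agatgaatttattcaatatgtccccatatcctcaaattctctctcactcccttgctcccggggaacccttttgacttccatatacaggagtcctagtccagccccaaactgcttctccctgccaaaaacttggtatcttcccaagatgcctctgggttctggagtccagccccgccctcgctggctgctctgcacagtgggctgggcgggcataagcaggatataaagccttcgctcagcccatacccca
*Gstm4*, chr3:108044860-108045109, minus strand: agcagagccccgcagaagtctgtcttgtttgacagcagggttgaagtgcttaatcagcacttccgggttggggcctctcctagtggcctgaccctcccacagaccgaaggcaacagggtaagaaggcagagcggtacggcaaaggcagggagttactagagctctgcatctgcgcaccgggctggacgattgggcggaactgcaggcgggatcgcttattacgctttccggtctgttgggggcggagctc

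Total counts per library ranged from 15576685 to 42005596, and the 48 genes together took 0.466% to 0.732% of them. *Foxs1*, the targeted gene, had 1.64 to 3.25 CPM (counts scaled to a library of 1000000) in the 6 libraries labelled WT. The 12 labelled KO had 21.0 to 56.8 CPM. Against WT it was called higher (as defined below) in uninduced clones 1 and 2 (log2 fold changes 3.55 and 3.36). The same held in stimulated clones 1 and 2 (4.44 and 3.99), so that RNA level did not show its loss. The cause of the higher RNA was not tested. For the knockout itself the paper relied on genomic sequencing and on western blots, which it reports as showing the loss. All 8 fibroblast markers (*Col1a1*, *Col1a2*, *Col3a1*, *Vim*, *Pdgfra*, *Pdgfrb*, *Thy1*, *S100a4*) had counts in every group. The summed level of 4 myofibroblast markers (*Acta2*, *Tagln*, *Cnn1*, *Myh11*) was 1980 to 2134 CPM in stimulated WT libraries and 297.6 to 338 CPM in stimulated clones. That of 7 adipocyte markers (*Adipoq*, *Plin1*, *Fabp4*, *Cidec*, *Lpl*, *Pparg*, *Cd36*) was 8.75 to 8.98 CPM in stimulated WT, with *Adipoq*, *Plin1* and *Cd36* at 0, against 67.3 to 80.5 in stimulated clone 1 and 23.6 to 30.5 in clone 2, with counts for all 7. In uninduced cells the myofibroblast sum was 255 to 294 CPM in WT, 414 to 427 in clone 1 (with *Cnn1* at 0) and 186 to 199.6 in clone 2, and the adipocyte sum was 78.5 to 86.3 CPM in WT (with *Cidec* and *Cd36* at 0), 35.9 to 41.0 in clone 1 and 44.3 to 47.4 in clone 2. The fibroblast sum was 33982 to 38834 CPM in uninduced and 60223 to 79233 CPM in stimulated libraries. These marker sums thus moved with the responses to stimulation as well as with the comparisons of clones with WT in each condition below, and their part in those results was not tested. The summed level of 6 macrophage markers (*Ptprc*, *Cd68*, *Adgre1*, *Csf1r*, *Tyrobp*, *Itgam*) was 0.273 to 1.68 CPM, with *Ptprc* and *Tyrobp* at 0 throughout. That of 4 endothelial markers (*Pecam1*, *Cdh5*, *Kdr*, *Tek*) was 5.03 to 7.92 CPM in uninduced WT and at most 0.828 CPM in the other groups. For 5 epithelial markers (*Epcam*, *Cdh1*, *Krt8*, *Krt18*, *Krt19*) it was 0 to 3.57 CPM.

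Levels differed widely between the genes. Per kb of exonic length, the highest mean levels over all 18 libraries were those of *Nqo1* (346 CPM per kb), *Txn1* (305), *Prdx1* (299.7), *Gpx4* (266), *Gstp1* (208), *Gstm1* (205) and *Gpx1* (184). *Slc7a11* stood at 1.01 CPM per kb. The filter on low counts (edgeR filterByExpr, minimum count 10) kept 14317 genes in all and 38 of the 48. The 10 left out were *Gpx2* and *Gpx5*, which had no count, *Gpx3*, *Gpx6*, *Gpx7*, *Gsta2*, *Gstm3*, *Gstp3*, *Gstt4* and *Gstk1*. Exons of *Gsta1*, *Gsta2*, *Gstm3*, *Gstp1*, *Gstp2*, *Gstt3* and *Gpx4* shared over 10% of their 100-base words with another gene, so that the counting could have split their reads and their values are uncertain. Those of *Gss*, *Keap1*, *Prdx2*, *Prdx5*, *Gstm5*, *Gstz1* and *Gstt3* overlapped other genes over more than 10% of their bases, and whether the counting used strand is not given in the sources used here.

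A gene was called when its Benjamini-Hochberg adjusted p in edgeR's quasi-likelihood test, over all 14317 genes, was below 0.05 and its absolute log2 fold change was above 1. In WT cells, no antioxidant gene was called higher after stimulation and 11 were called lower (28.9% of 38 called, against 19.9% of all tested genes, 6.25% higher and 13.6% lower). All 11 were glutathione transferases. In clone 1, 2 were called higher and 10 lower (31.6%, against 16.7% of all genes, 5.95% higher and 10.7% lower), and in clone 2, 4 were higher and 8 lower (31.6%, against 17.7% of all genes, 6.46% higher and 11.2% lower). The genes called higher on stimulation in the clones were *Gclc* and *Nqo1* in clone 1 and *Gclc*, *Nqo1*, *Slc7a11* and *Srxn1* in clone 2. In bulk RNA, fewer cells of a type and less RNA per cell cannot be told apart.

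Before stimulation, 2 genes were called higher and 3 lower in clone 1 than in WT (13.2%, against 15.1% of all genes, 6.32% higher and 8.73% lower), and in clone 2, 10 were called lower and none higher (26.3%, against 15.1% of all genes, 5.54% higher and 9.56% lower). In stimulated cells, clone 1 had 6 higher and 4 lower (26.3%, against 19.0% of all genes, 9.42% higher and 9.60% lower) and for clone 2 these were 5 and 4 (23.7%, against 16.9% of all genes, 7.95% higher and 8.94% lower). Called higher in both stimulated clones were *Slc7a11*, *Nqo1* and *Gsta3*, which is 7.89% of the 38 against 5.26% of all tested genes. Called lower in both stimulated clones were *Gsta4*, *Gstm4* and *Gstt3* (7.89%, against 5.77%). The same 3 were called lower in both clones before stimulation (7.89%, against 5.78%), where no antioxidant gene was called higher in both (3.28% of all genes).

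The difference in response was tested as the interaction term, the log2 fold change of a clone on stimulation minus that of WT. It was called positive for 5 genes in clone 1 (13.2%, against 8.81% of all genes, 5.34% positive and 3.46% negative) and for 7 in clone 2 (18.4%, against 7.85%, 4.89% positive and 2.96% negative), and negative for none of the 38 in either clone at these thresholds. At adjusted p alone, 19 of the 38 passed in each clone (31.6% and 31.2% of all genes), and those with a negative difference were *Gpx1*, *Gpx8* and *Gsta4* in both and *Prdx5* in clone 1. *Gclc*, *Nqo1*, *Gsta3* and *Gstm1* were called positive in both clones, 10.5% of the 38 against 3.12% of all genes. With no fold threshold, 30, 26 and 31 of the 38 passed the adjusted p in the responses of WT, clone 1 and clone 2, against 60.7%, 54.5% and 55.8% of all genes. Against WT, 22 and 32 did in uninduced clones 1 and 2 (53.5% and 53.2%) and 24 and 25 in stimulated ones (58.9% and 56.0%), and between the clones 28 did uninduced and 26 stimulated (42.2% and 45.4%). No antioxidant gene had a negative difference called in both clones (1.60% of all genes). The median log2 fold change of the 38 genes was −0.47 on stimulation of WT, −0.18 in clone 1 and −0.22 in clone 2, against medians between −0.04 and −0.02 over all tested genes. Median values against WT in stimulated cells were 0.06 for clone 1 and −0.03 for clone 2. These medians were the same with genes of 3 counts or fewer set to their bound. They could hardly differ, since the few genes so set kept their direction and lay away from the middle.

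**Figure D1:**
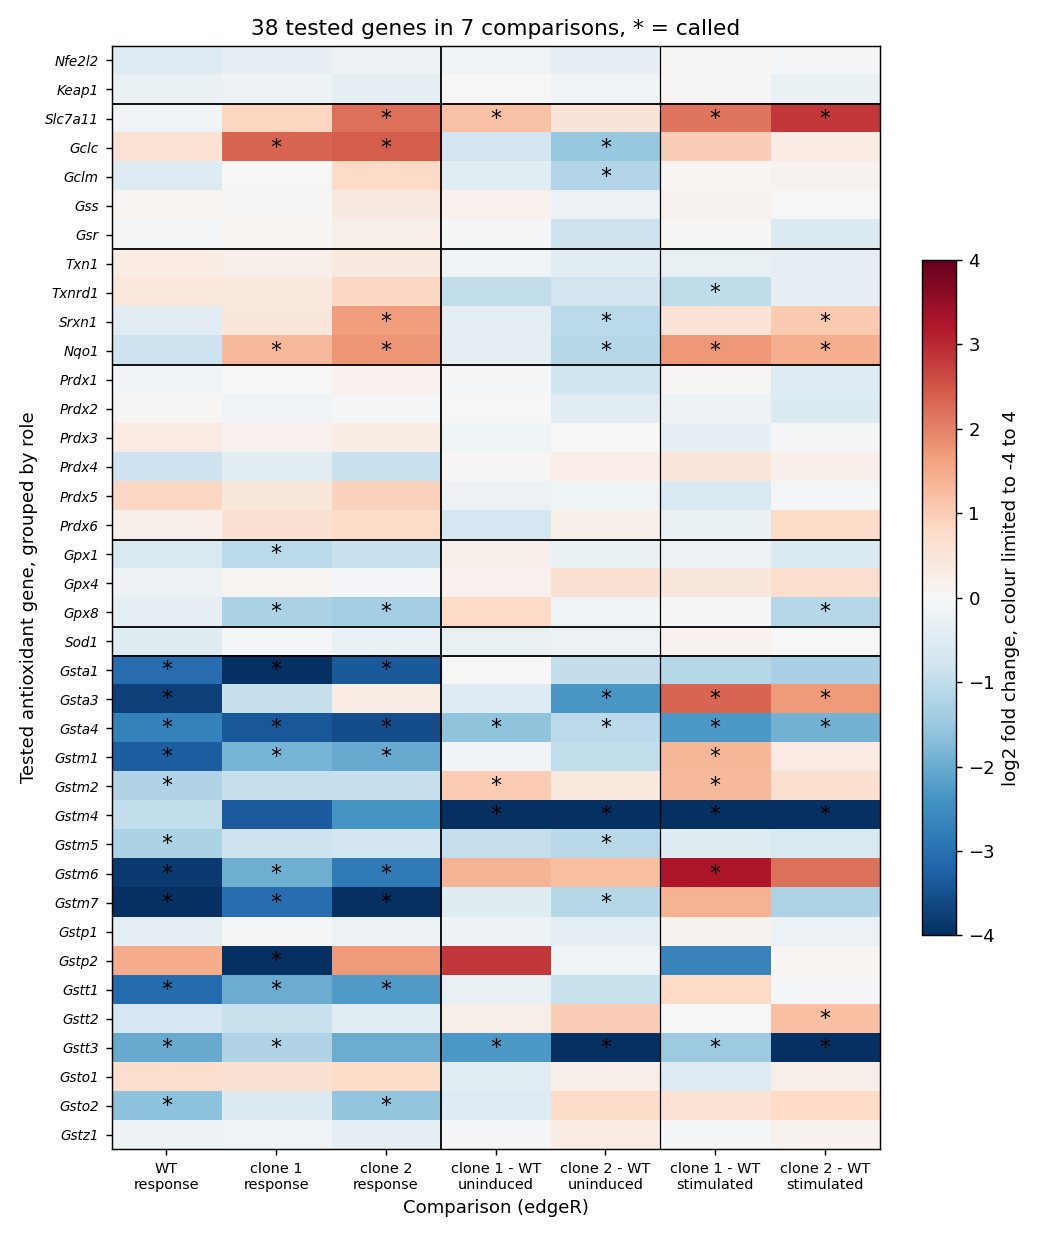
Log2 fold changes (colour, limited to −4 to 4) of the 38 tested genes, in rows grouped by role, over 7 comparisons in columns, with asterisks at the called values. Most transferases are blue in the 3 response columns, red cells of *Slc7a11*, *Gclc*, *Srxn1* and *Nqo1* appear in the responses of the clones, and *Gstm4* in both clones and *Gstt3* in clone 2 are beyond the colour limit in the comparisons with WT, as are *Gsta1*, *Gstm7* and *Gstp2*, all with few counts, in some responses.

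The regulators themselves were not called in any of the 11 comparisons. *Nfe2l2*, which encodes NRF2, had 149, 141 and 137 CPM in the uninduced WT libraries and 93.6, 106 and 101 CPM in the stimulated ones. Stimulated clone 1 had 103, 108 and 101 CPM and stimulated clone 2 had 99.1, 99.2 and 95.8 CPM, both overlapping stimulated WT. The stimulated clones differed from WT by 0.05 (SE 0.0567, edgeR adjusted p = 0.453) and −0.03 (SE 0.0575, edgeR adjusted p = 0.655) on the log2 scale, with 95% intervals, taken from the SE, of −0.06 to 0.16 and −0.15 to 0.08. In the WT response *Nfe2l2* had a log2 fold change of −0.50 (SE 0.0565, edgeR adjusted p = 5.78e-09), past the adjusted p but not the fold threshold. *Keap1*, which encodes the NRF2 inhibitor, had 63.7, 62.6 and 61.0 CPM in stimulated WT, 63.3, 65.1 and 66.8 in clone 1 and 53.2, 52.2 and 51.9 in clone 2. Its log2 fold changes against WT in stimulated cells were 0.06 (SE 0.0568, edgeR adjusted p = 0.377) and −0.25 (SE 0.0583, edgeR adjusted p = 0.000509), and in the WT response −0.27 (SE 0.0567, edgeR adjusted p = 0.000144).

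*Slc7a11* (ENSMUSG00000027737, chr3:49892526-50443614, minus strand) encodes the cystine-glutamate exchanger that supplies cysteine for glutathione. It was low in WT, with 3.49, 4.30 and 7.31 CPM uninduced and 4.64, 5.53 and 4.15 CPM stimulated. Clone 1 had 12.7, 12.9 and 9.21 CPM uninduced and 20.2, 22.6 and 19.8 CPM stimulated, and clone 2 had 6.35, 7.92 and 8.23 CPM uninduced and 30.1, 34.6 and 38.0 CPM stimulated. The 6 stimulated clone libraries were all above the 6 WT libraries. In stimulated cells *Slc7a11* was higher than in WT in clone 1 (log2 fold change 2.13, SE 0.189, edgeR adjusted p = 8.62e-10) and in clone 2 (log2 fold change 2.84, SE 0.189, edgeR adjusted p = 4.82e-12). Its response to stimulation was −0.12 (SE 0.211, edgeR adjusted p = 0.656) in WT, 0.85 (SE 0.174, edgeR adjusted p = 0.000227) in clone 1 and 2.21 (SE 0.178, edgeR adjusted p = 1.6e-10) in clone 2, and the response of clone 2 differed from that of WT (difference in log2 fold change 2.33, SE 0.276, edgeR adjusted p = 3.75e-07). The difference for clone 1 was 0.96 (SE 0.274, edgeR adjusted p = 0.0086), just under the fold threshold. Before stimulation only clone 1 was called (log2 fold change 1.16, SE 0.196, edgeR adjusted p = 2.37e-05), a call lost without WT uninduced replicate 1 (0.97). The 20 nearest tested genes had a median of 0.44 in stimulated clone 1 and 0.14 in clone 2.

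*Gclc* (ENSMUSG00000032350, chr9:77754535-77794485, plus strand) encodes the catalytic subunit of glutamate-cysteine ligase, the rate-limiting enzyme of glutathione synthesis. Uninduced libraries held 72.4, 90.8 and 78.7 CPM in WT, 51.2, 46.1 and 46.7 in clone 1 and 27.5, 27.7 and 30.5 in clone 2, in which every clone library was below every WT library. Stimulated libraries held 111, 125 and 127 CPM in WT, 245, 245 and 232 in clone 1 and 148, 150.2 and 160.0 in clone 2, and there every clone library was above every WT library. *Gclc* thus rose on stimulation in clone 1 (log2 fold change 2.32, SE 0.0700, edgeR adjusted p = 5.71e-22) and clone 2 (log2 fold change 2.42, SE 0.0723, edgeR adjusted p = 3.36e-22), while its WT response of 0.58 (SE 0.0670, edgeR adjusted p = 1.03e-08) was below the fold threshold. The differences in response were 1.74 (SE 0.0960, edgeR adjusted p = 5.5e-15) for clone 1 and 1.84 (SE 0.0978, edgeR adjusted p = 3.29e-15) for clone 2. Uninduced clone 2 was called lower than WT (log2 fold change −1.50, SE 0.0723, edgeR adjusted p = 6.68e-17), with a median of −0.54 over the 20 nearest tested genes, and clone 1 had −0.75 (SE 0.0704, edgeR adjusted p = 2.86e-10). In stimulated cells the values against WT were 0.99 (SE 0.0652, edgeR adjusted p = 6.8e-14) in clone 1, which was called under 6 of the alternative settings with 1.00 to 1.03, and 0.34 (SE 0.0659, edgeR adjusted p = 6.79e-05) in clone 2.

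*Gclm*, the modifier subunit of the same ligase, had 89.2, 96.9 and 91.2 CPM in uninduced WT and 61.6, 69.8 and 61.2 CPM in stimulated WT. In clone 1 it had 71.4, 65.8 and 68.9 CPM uninduced and 68.7, 65.6 and 70.8 CPM stimulated, and in clone 2 40.2, 41.1 and 41.9 CPM uninduced and 68.4, 70.3 and 73.6 CPM stimulated. The stimulated libraries of the 3 cell lines overlapped, whereas uninduced clone 2 was below all others and was called lower than WT (log2 fold change −1.17, SE 0.0620, edgeR adjusted p = 5.27e-16). Against WT in stimulated cells *Gclm* had 0.09 (SE 0.0611, edgeR adjusted p = 0.209) in clone 1 and 0.14 (SE 0.0618, edgeR adjusted p = 0.0544) in clone 2. Its WT response was −0.53 (SE 0.0607, edgeR adjusted p = 1.03e-08), and the response of clone 2 differed from it (difference in log2 fold change 1.31, SE 0.0874, edgeR adjusted p = 4.05e-13), while that of clone 1 differed by 0.52 (SE 0.0862, edgeR adjusted p = 1.77e-05).

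The remaining steps of the pathway moved less. *Gss*, glutathione synthetase, had 24.5 to 24.8 CPM in stimulated WT, 24.2 to 28.4 in stimulated clone 1 and 23.3 to 26.8 in stimulated clone 2. It was not called in any comparison. *Gsr*, which returns oxidised glutathione to the reduced form, had 85.8, 82.3 and 77.3 CPM in stimulated WT, 86.9, 88.2 and 80.7 in clone 1 and 56.3, 56.1 and 56.1 in clone 2. The 6 clone 2 libraries were below the 12 others. None of its comparisons was called, with −0.87 (SE 0.0591, edgeR adjusted p = 2e-13) in uninduced and −0.54 (SE 0.0597, edgeR adjusted p = 5.16e-09) in stimulated clone 2 against WT, 0.06 (SE 0.0577, edgeR adjusted p = 0.381) in stimulated clone 1 and −0.08 (SE 0.0578, edgeR adjusted p = 0.258) in the WT response.

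*Nqo1* (ENSMUSG00000003849, chr8:107388225-107403206, minus strand) encodes NAD(P)H quinone dehydrogenase, a classical NRF2 target. In WT it had 508, 549 and 499 CPM uninduced and 313, 286 and 275 CPM stimulated, a response of −0.83 (SE 0.0559, edgeR adjusted p = 1.34e-13) that was below the fold threshold. Clone 1 had 399.8, 399 and 399.5 CPM uninduced and 1045, 949 and 934 CPM stimulated, and clone 2 had 247, 249 and 213 CPM uninduced and 813, 799.6 and 806 CPM stimulated. All stimulated WT libraries were below all uninduced WT libraries, and in both clones the order was the opposite. *Nqo1* rose on stimulation in clone 1 (log2 fold change 1.29, SE 0.0560, edgeR adjusted p = 5.27e-18) and clone 2 (log2 fold change 1.77, SE 0.0570, edgeR adjusted p = 3.2e-21). The differences in response were 2.12 (SE 0.0791, edgeR adjusted p = 7.27e-19) and 2.60 (SE 0.0797, edgeR adjusted p = 1.38e-20). In stimulated cells *Nqo1* was higher than in WT in clone 1 (log2 fold change 1.74, SE 0.0568, edgeR adjusted p = 4.09e-21) and clone 2 (log2 fold change 1.47, SE 0.0565, edgeR adjusted p = 2.71e-19), whereas in uninduced cells clone 2 was lower (log2 fold change −1.13, SE 0.0562, edgeR adjusted p = 1.85e-16) and clone 1 had −0.37 (SE 0.0555, edgeR adjusted p = 1.44e-06).

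*Srxn1*, sulfiredoxin, repairs overoxidised peroxiredoxins. Its levels were 136, 154 and 136 CPM in uninduced and 100.02, 107 and 107 CPM in stimulated WT, and 65.9, 68.6 and 68.8 CPM uninduced and 201, 222 and 222 CPM stimulated in clone 2. Clone 2 was thus below WT in every uninduced library and above it in every stimulated one. It was called lower before (log2 fold change −1.07, SE 0.0674, edgeR adjusted p = 5.39e-14) and higher after stimulation (log2 fold change 1.04, SE 0.0662, edgeR adjusted p = 5.54e-14), with a difference in response of 2.11 (SE 0.0945, edgeR adjusted p = 8.85e-17). Clone 1 had 115, 113 and 98.1 CPM uninduced and 161, 154 and 135 CPM stimulated, with 0.52 (SE 0.0660, edgeR adjusted p = 7.62e-08) against stimulated WT, a difference in response of 0.91 (SE 0.0936, edgeR adjusted p = 5.09e-09) and no call. The WT response was −0.44 (SE 0.0662, edgeR adjusted p = 1.28e-06).

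*Txnrd1*, which encodes thioredoxin reductase, had 369, 378 and 379 CPM in uninduced and 499.6, 517 and 494 CPM in stimulated WT. Clone 1 had 194, 196 and 184 CPM uninduced and 255, 245 and 246 CPM stimulated, and clone 2 had 224, 225 and 234 CPM uninduced and 415, 409.6 and 386 CPM stimulated, and the clones were below WT in each condition without overlap. Stimulated clone 1 was called lower (log2 fold change −1.02, SE 0.0426, edgeR adjusted p = 1.11e-18), a call lost without WT stimulated replicate 2 (−0.995) or KO1 stimulated replicate 3, and stimulated clone 2 had −0.32 (SE 0.0422, edgeR adjusted p = 1.52e-07). The WT response was 0.42 (SE 0.0421, edgeR adjusted p = 5.2e-10), and clone 1 differed from it by −0.05 (SE 0.0601, edgeR adjusted p = 0.612). The response of clone 2 was 0.82 (SE 0.0427, edgeR adjusted p = 2.06e-16), a difference from WT of 0.40 (SE 0.0598, edgeR adjusted p = 3.52e-06), below the fold threshold. The 20 tested genes nearest to *Txnrd1* had a median of −0.67 in stimulated clone 1, and the median over chromosome 10 was −0.43 there. The part of this in the result was not tested. *Txn1*, thioredoxin, its substrate, was not called, with 405 to 425 CPM in stimulated WT, 315 to 358 in stimulated clone 1 and 300.05 to 326 in stimulated clone 2.

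**Figure D2:**
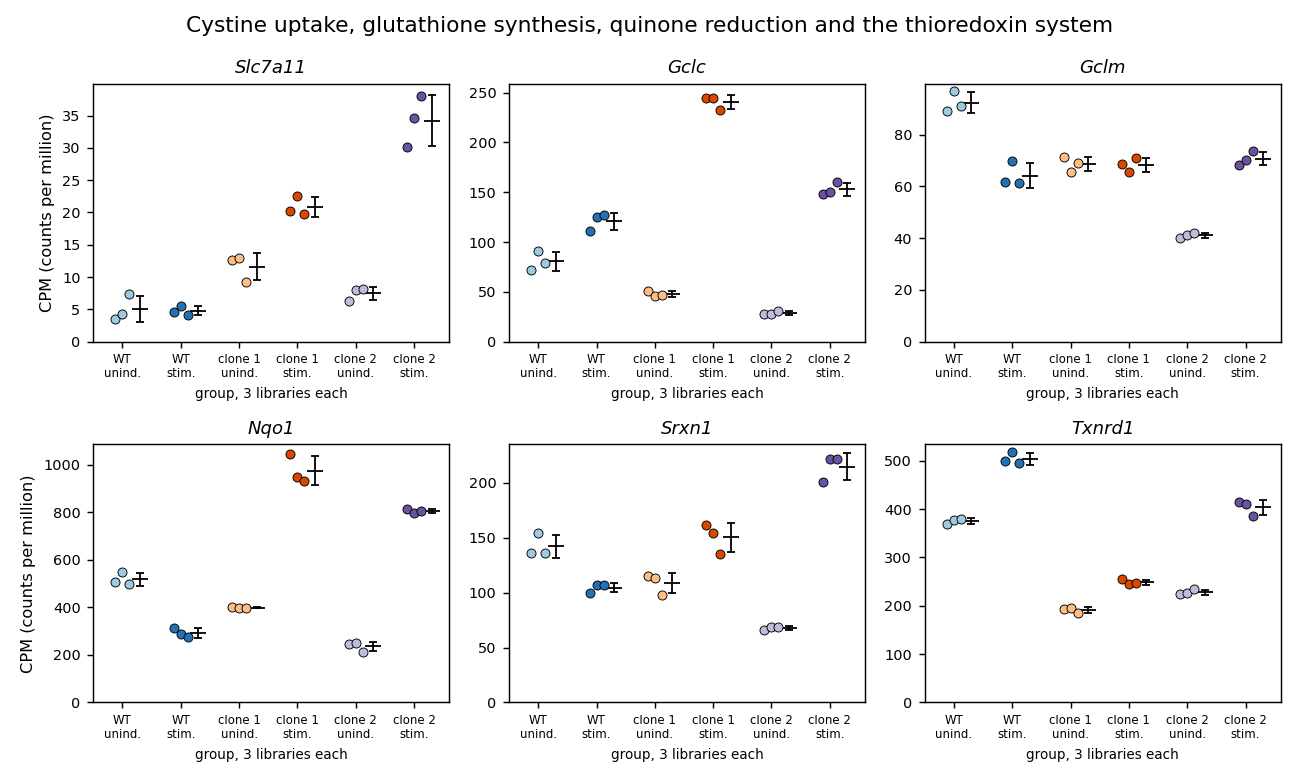
CPM (vertical axes, from 0) of 6 genes in each of the 18 libraries (points), by group, with the mean and SD of the 3 libraries beside them. *Nqo1* lay between 275 and 549 CPM in WT and between 799.6 and 1045 CPM in the stimulated clones, and *Slc7a11* and *Gclc* were likewise highest in the stimulated clones, whereas *Txnrd1* was highest in stimulated WT.

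**Figure D3:**
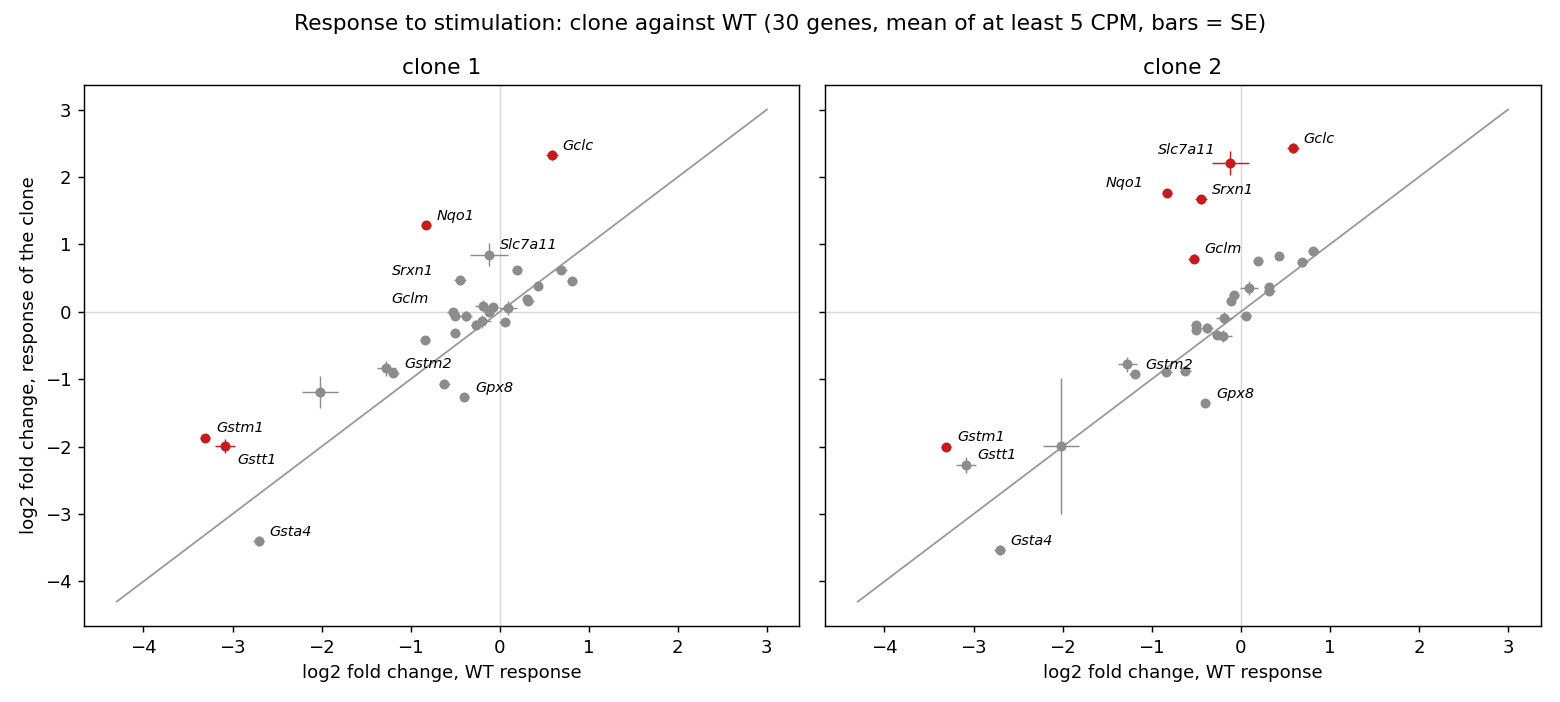
Log2 fold change on stimulation in WT (horizontal axis) against that in clone 1 (left) or clone 2 (right), for 30 genes whose mean reached 5 CPM, with SE bars and a line of equal response. Red points are genes whose difference in response was called. *Gclc*, *Nqo1* and *Gstm1* lie above the line in both panels, and *Slc7a11*, *Srxn1* and *Gclm* are red only for clone 2. The horizontal axis shares the WT libraries, and the vertical axis the clone libraries, with the test of the difference.

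The peroxiredoxins, thiol peroxidases that reduce hydrogen peroxide, stayed below the fold threshold against WT. None of the 6 was called in any comparison with WT or in any response, where 15.1% to 19.9% of all genes were called. *Prdx1* had 1035, 1126 and 1087 CPM in uninduced and 1017, 978 and 1006 CPM in stimulated WT, with a WT response of −0.11 (SE 0.0477, edgeR adjusted p = 0.0384). Stimulated clone 1 had 1081, 1011 and 998 CPM (log2 fold change 0.04, SE 0.0477, edgeR adjusted p = 0.461), and stimulated clone 2 had 673, 697 and 734 CPM (log2 fold change −0.51, SE 0.0480, edgeR adjusted p = 1.84e-10). The clone 2 libraries lay below all others in both conditions, and the 20 tested genes nearest to *Prdx1* had a median of −0.67 in stimulated clone 2. *Prdx5*, which resides partly in mitochondria, had 0.81 (edgeR adjusted p = 3.36e-13) in the WT response, and *Prdx4*, of the endoplasmic reticulum, had −0.84 (edgeR adjusted p = 2.6e-13). *Prdx6*, which also reduces phospholipid hydroperoxides, had 174, 178 and 163 CPM in stimulated WT, 147, 147 and 133 in clone 1 and 284, 299 and 301 in clone 2, so that the clones lay on opposite sides of WT. Stimulated clone 1 was lower than clone 2 (log2 fold change −1.05, SE 0.0543, edgeR adjusted p = 6.87e-16), a call lost without KO1 stimulated replicate 3 (−0.99).

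Among the glutathione peroxidases, 3 were tested. *Gpx4*, which reduces lipid hydroperoxides and restrains ferroptosis, had 334, 335 and 347 CPM in stimulated WT, 499, 444 and 443 in clone 1 and 545, 547 and 555 in clone 2. The clones lay above WT without overlap and below the fold threshold, at 0.45 (SE 0.0890, edgeR adjusted p = 0.000353) and 0.70 (SE 0.0893, edgeR adjusted p = 3.66e-06), and the WT response was −0.19 (SE 0.0891, edgeR adjusted p = 0.077). *Gpx1*, the main cytosolic enzyme, fell on stimulation in clone 1 (log2 fold change −1.06, SE 0.0653, edgeR adjusted p = 1.6e-13), from 401, 383 and 400.3 to 202, 179.7 and 185 CPM. Its responses in WT and clone 2 were −0.62 (edgeR adjusted p = 4.78e-09) and −0.88 (edgeR adjusted p = 1.02e-11).

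*Gpx8*, a peroxidase of the endoplasmic reticulum, had 97.9, 94.3 and 96.9 CPM in uninduced WT, 168, 168 and 167 in clone 1 and 86.9, 83.8 and 83.4 in clone 2. After stimulation the values were 73.1, 70.1 and 76.2 CPM in WT, 70.5, 67.0 and 71.4 in clone 1 and 32.5, 33.5 and 33.1 in clone 2. *Gpx8* fell on stimulation in clone 1 (log2 fold change −1.27, SE 0.0501, edgeR adjusted p = 2.86e-19) and clone 2 (log2 fold change −1.36, SE 0.0543, edgeR adjusted p = 3.28e-19), with −0.40 (SE 0.0503, edgeR adjusted p = 5.84e-08) in WT. Stimulated clone 2 was lower than WT (log2 fold change −1.15, SE 0.0547, edgeR adjusted p = 3.02e-17), where the 20 nearest tested genes had a median of −0.51, and stimulated clone 1 overlapped WT.

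*Sod1*, cytosolic superoxide dismutase, had 199.8, 201 and 195 CPM in stimulated WT, 227, 219 and 212 in clone 1 and 190.1, 202 and 197 in clone 2. It was not called in any comparison, with 0.14 (SE 0.0473, edgeR adjusted p = 0.0108) and −0.02 (SE 0.0477, edgeR adjusted p = 0.792) against WT and −0.50 (SE 0.0473, edgeR adjusted p = 1.95e-10) in the WT response.

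Of the 22 glutathione transferases, 17 were tested, and many of them were lower after stimulation. In the WT response 11 of the 17 were called lower (64.7%, against 13.6% of all genes) and none higher, and 8 were called lower in clone 1 (47.1%, against 10.7%) and 7 in clone 2 (41.2%, against 11.2%), with none higher in either. *Gsta1*, *Gsta4*, *Gstm1*, *Gstm6*, *Gstm7* and *Gstt1* were called lower in all 3 cell lines, of which *Gsta1* and *Gstm6* had few counts. The call of *Gstm6* in clone 1 was lost without KO1 uninduced replicate 3 (−1.45), and that of *Gsta1* in clone 2 was lost without KO2 uninduced replicate 1 (−2.50) or KO2 stimulated replicate 1 (−2.77) or 2 (−2.86). Against WT in stimulated cells, 4 were called higher (23.5%, against 9.42% of all genes) and 3 lower (17.6%, against 9.60%) in clone 1, and 2 higher (11.8%, against 7.95%) and 3 lower (17.6%, against 8.94%) in clone 2. *Gsto1* was the transferase with a positive response past the adjusted p in all 3 cell lines, at 0.69 (edgeR adjusted p = 9.93e-11) in WT, 0.62 (edgeR adjusted p = 1.54e-09) in clone 1 and 0.73 (edgeR adjusted p = 2.6e-11) in clone 2.

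*Gsta4* (ENSMUSG00000032348, chr9:78182774-78209349, plus strand) encodes the transferase that handles hydroxynonenal, an aldehyde of lipid peroxidation. It had 359, 346 and 346 CPM in uninduced and 54.4, 58.8 and 47.6 CPM in stimulated WT, a log2 fold change of −2.71 (SE 0.0601, edgeR adjusted p = 2.06e-25). Clone 1 had 112, 121 and 113 CPM uninduced and 11.1, 10.9 and 10.8 CPM stimulated, and clone 2 had 163, 177 and 163 CPM uninduced and 14.7, 14.4 and 14.4 CPM stimulated, with every clone library below every WT library of its condition. *Gsta4* was lower than in WT before stimulation in clone 1 (log2 fold change −1.60, SE 0.0570, edgeR adjusted p = 3.99e-20) and clone 2 (log2 fold change −1.06, SE 0.0556, edgeR adjusted p = 4.23e-16), and after it in clone 1 (log2 fold change −2.30, SE 0.0713, edgeR adjusted p = 6.74e-22) and clone 2 (log2 fold change −1.89, SE 0.0716, edgeR adjusted p = 1.08e-19). It also fell within each clone, with log2 fold changes of −3.40 (SE 0.0702, edgeR adjusted p = 4.46e-26) and −3.54 (SE 0.0697, edgeR adjusted p = 1.02e-26). The differences in response, −0.70 (edgeR adjusted p = 4e-07) and −0.83 (edgeR adjusted p = 1.64e-08), were below the fold threshold.

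*Gsta4* and *Gclc* lie on the same strand of the same stretch of chromosome 9. In stimulated clones *Gclc* was above and *Gsta4* below WT in every library, whereas in uninduced clones both were below WT in every library. The alpha transferase *Gsta3*, on chromosome 1, had low counts. Its levels were 2.15, 2.62 and 2.13 CPM in uninduced and 0.147, 0.130 and 0.225 CPM in stimulated WT, with 0.819, 1.39 and 2.64 CPM in uninduced and 0.585, 0.700 and 1.27 CPM in stimulated clone 1. Clone 2 had 0.490, 0.443 and 0.406 CPM uninduced and 0.560, 0.523 and 0.601 CPM stimulated. All 6 stimulated clone libraries were above the 3 of WT, with 2.31 (SE 0.557, edgeR adjusted p = 0.000693) for clone 1 and 1.71 (SE 0.600, edgeR adjusted p = 0.0163) for clone 2, the latter call being lost without WT stimulated replicate 2 (1.56). *Gsta3* fell in the WT response (log2 fold change −3.74, SE 0.527, edgeR adjusted p = 4.1e-07), and neither clone was called. The differences in response were 2.82 (SE 0.694, edgeR adjusted p = 0.00199) and 4.05 (SE 0.748, edgeR adjusted p = 7.96e-05), and uninduced clone 2 was lower than WT (log2 fold change −2.33, SE 0.450, edgeR adjusted p = 6.39e-05).

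The 7 mu class genes lie side by side on chromosome 3, from *Gstm5* (ENSMUSG00000004032, chr3:107895821-107898686, plus strand) to *Gstm4* (ENSMUSG00000027890, chr3:108040408-108044894, minus strand). On stimulation the mean level of each tested mu gene other than *Gstm4* was lower in all 3 cell lines. *Gstm4* was lower in stimulated WT, and its counts in the clones were too few to show a fall. In the comparisons of clones with WT the mu genes did not move as a block. *Gstm4* had 9.37, 11.0 and 6.93 CPM in uninduced and 4.79, 4.19 and 4.91 CPM in stimulated WT, which is 553 and 304 counts. The clones had 3 counts (clone 1) and 2 counts (clone 2) over 3 libraries when uninduced and none when stimulated, and every clone library was below every WT library. The level in uninduced WT was 169.6 times that of clone 1 (95% interval 57.7 to 825) and 375 times that of clone 2 (103 to 3101). In stimulated cells it was at least 104.5-fold lower in clone 1 and at least 76.7-fold lower in clone 2, taking 3 counts over the group as the floor, and these intervals and floors cover counting error only. All 4 comparisons of *Gstm4* with WT were called (edgeR adjusted p between 3.83e-12 and 3.1e-10). The 20 nearest tested genes had medians of 0.21 and 0.15 in stimulated clones 1 and 2.

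*Gstm1* (ENSMUSG00000058135, chr3:108012255-108017973, minus strand), by level per kb the most abundant of the mu class, had 588, 669.7 and 606 CPM in uninduced and 59.2, 67.2 and 61.8 CPM in stimulated WT, and it fell (log2 fold change −3.31, SE 0.0544, edgeR adjusted p = 2.26e-28). In clone 1 it went from 585, 582 and 564 to 162, 159 and 153 CPM (log2 fold change −1.87, SE 0.0507, edgeR adjusted p = 3.25e-23) and in clone 2 from 310.0, 314 and 324 to 77.4, 81.0 and 77.8 CPM (log2 fold change −2.004, SE 0.0526, edgeR adjusted p = 1.21e-23). The fall was smaller in the clones, with differences in response of 1.44 (SE 0.0713, edgeR adjusted p = 3.45e-16) and 1.30 (SE 0.0727, edgeR adjusted p = 8.31e-15). Against stimulated WT, clone 1 was called higher (log2 fold change 1.33, SE 0.0524, edgeR adjusted p = 2.43e-19) and clone 2 had 0.33 (SE 0.0538, edgeR adjusted p = 6.08e-06).

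*Gstm2*, beside it, had 46.7, 46.3 and 43.8 CPM in stimulated WT, 119, 112 and 106 in clone 1 and 72.8, 69.5 and 72.4 in clone 2. Clone 1 was called higher both after (log2 fold change 1.30, SE 0.0621, edgeR adjusted p = 2.93e-17) and before stimulation (log2 fold change 1.01, SE 0.0591, edgeR adjusted p = 6.02e-15), the latter call being lost without WT uninduced replicate 1 (0.98) or KO1 uninduced replicate 1 (0.95). Clone 2 had 0.65 (SE 0.0637, edgeR adjusted p = 4.58e-10) in stimulated cells. *Gstm2* fell in WT (log2 fold change −1.19, SE 0.0623, edgeR adjusted p = 2.41e-16). *Gstm5* went from 65.6, 77.0 and 72.6 to 31.3, 28.3 and 29.5 CPM in WT (log2 fold change −1.27, SE 0.105, edgeR adjusted p = 2.67e-11), and uninduced clone 2, at 33.2, 34.2 and 32.0 CPM, was lower than WT (log2 fold change −1.12, SE 0.103, edgeR adjusted p = 4.53e-10).

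*Gstm6* and *Gstm7* had low counts and fell on stimulation in all 3 cell lines. *Gstm6* had 0.0978, 0 and 0 CPM in stimulated WT, 2 counts in all, and 0.266, 0.442 and 0.273 CPM in stimulated clone 1, 23 counts. The ratio was 11.1, with a 95% interval, of counting error only, of 2.75 to 97.5 (edgeR adjusted p = 0.00779). *Gstm7* went from 1.92, 8.96 and 7.16 to 0.342, 0.173 and 0.0901 CPM in WT (log2 fold change −4.89, SE 0.611, edgeR adjusted p = 4.83e-07). Its call in uninduced clone 2 (log2 fold change −1.13, SE 0.428, edgeR adjusted p = 0.0309) was lost under 8 settings, among them the DESeq2 test and 5 of the fits without a library.

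The theta class lies together on chromosome 10. *Gstt3* (ENSMUSG00000001665, chr10:75774115-75781414, minus strand) had 27.3, 24.7 and 24.8 CPM in uninduced and 6.75, 6.26 and 5.95 CPM in stimulated WT (log2 fold change −2.02, SE 0.202, edgeR adjusted p = 8.23e-10). Clone 1 had 4.66, 4.18 and 6.83 CPM uninduced and 1.49, 2.62 and 2.64 CPM stimulated, and clone 2 had 0.178, 0.310 and 0 CPM uninduced and 0.112, 0 and 0 CPM stimulated. The order WT, clone 1, clone 2 held without overlap in both conditions. Clone 1 was lower than WT before (log2 fold change −2.29, SE 0.208, edgeR adjusted p = 1.68e-10) and after stimulation (log2 fold change −1.46, SE 0.234, edgeR adjusted p = 3.93e-06). Uninduced clone 2 was lower (log2 fold change −7.13, SE 0.319, edgeR adjusted p = 1.87e-17), with 15 counts against 1590 in WT, so that this SE is only approximate. Stimulated WT, with 415 counts, had 157 times the level of clone 2, with 2 counts (95% interval 43.2 to 1301, counting error only). The 20 nearest tested genes had medians of −0.37 in stimulated clone 1 and 0.16 in clone 2, and another gene covers 13.6% of its exonic length.

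*Gstt1* (ENSMUSG00000001663, chr10:75783813-75798584, minus strand), its neighbour, kept counts in both clones. It had 36.4, 32.5 and 39.0 CPM in uninduced and 3.81, 4.58 and 4.33 CPM in stimulated WT, 29.7, 29.4 and 28.0 CPM uninduced and 8.25, 6.89 and 6.92 CPM stimulated in clone 1, and 19.5, 19.6 and 18.7 CPM uninduced and 3.92, 3.99 and 4.09 CPM stimulated in clone 2. It fell in WT (log2 fold change −3.08, SE 0.112, edgeR adjusted p = 3.13e-20), clone 1 (log2 fold change −1.99, SE 0.105, edgeR adjusted p = 3.45e-16) and clone 2 (log2 fold change −2.27, SE 0.119, edgeR adjusted p = 2.63e-16). The fall was smaller in clone 1 than in WT (difference in log2 fold change 1.09, SE 0.154, edgeR adjusted p = 1.23e-06), and for clone 2 the difference was 0.81 (SE 0.168, edgeR adjusted p = 0.000308). *Gstt2* had 0.587, 0.734 and 0.631 CPM in stimulated WT and 1.57, 1.50 and 1.44 CPM in stimulated clone 2 (log2 fold change 1.20, SE 0.421, edgeR adjusted p = 0.0165), a call lost without WT stimulated replicate 1 (1.13).

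**Figure D4:**
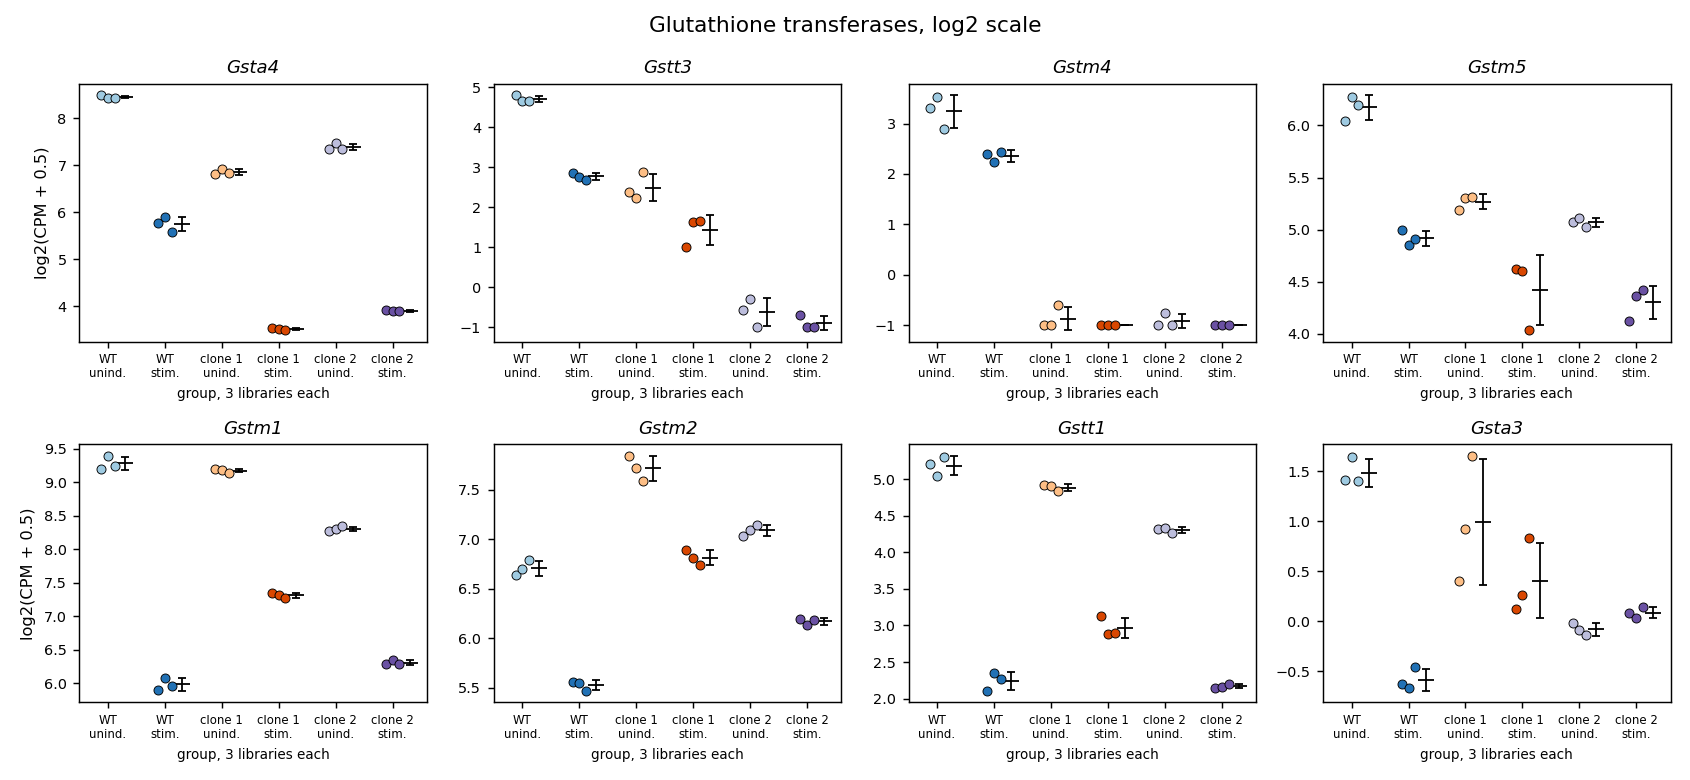
Log2(CPM + 0.5) of 8 transferases in the 18 libraries (points), by group, with mean and SD beside them. *Gsta4*, *Gstt3* and *Gstm4* were lower in both clones than in WT in each condition, *Gstm4* lay at the value for 0 CPM in all stimulated clone libraries, and *Gstm1*, *Gstm2*, *Gstm5* and *Gstt1* of the same gene clusters kept counts in every library.

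The remaining transferases had few counts or no calls. *Gstp1*, the pi class enzyme, had 144 to 149.98 CPM in stimulated WT, 151 to 178 in stimulated clone 1 and 122 to 132 in stimulated clone 2 and was not called in any comparison, nor were *Gsto1* and *Gstz1*. *Gstp2*, which shares 46.9% of its 100-base words with other genes, chiefly *Gstp1*, was called lower on stimulation of clone 1 (log2 fold change −4.04, SE 1.58, edgeR adjusted p = 0.0459), a call lost under 6 settings. *Gsta1* was called lower in the 3 responses on few and uneven counts, 0, 16 and 47 in uninduced WT and 3, 3 and 1 in stimulated WT, and the WT call was lost without WT uninduced replicate 3 (−1.95). In clone 1 it went from 53 to 3 counts, a ratio of 20.9 with a 95% interval, of counting error only, of 6.76 to 104. *Gsto2* was called lower in the responses of WT (log2 fold change −1.64, SE 0.428, edgeR adjusted p = 0.00151) and clone 2 (log2 fold change −1.59, SE 0.401, edgeR adjusted p = 0.00122), the former lost without WT uninduced replicate 1 (−0.99). Of the genes outside the test, *Gpx7* had 18 counts in uninduced and 30 in stimulated WT and none in the 12 clone libraries, at least 10.3-fold lower in stimulated clone 1 and at least 7.57-fold lower in stimulated clone 2.

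The clones differed from each other as well. Uninduced, 2 antioxidant genes were called higher and 1 lower in clone 1 than in clone 2 (7.89% of 38, against 8.67% of all tested genes, 4.89% higher and 3.78% lower), and stimulated, 4 were higher and 2 lower (15.8%, against 9.98%, 5.50% and 4.48%). *Gstt3* was higher in clone 1 uninduced (log2 fold change 4.84, SE 0.356, edgeR adjusted p = 3.82e-12), with 15 counts in clone 2, so that this SE is only approximate. In stimulated cells its level was 57.6 times that of clone 2 (95% interval 15.7 to 479.6, counting error only). *Gsta3* was higher in uninduced clone 1 (log2 fold change 1.82, SE 0.457, edgeR adjusted p = 0.00167) and *Gsto2* lower (log2 fold change −1.24, SE 0.384, edgeR adjusted p = 0.0097), the latter call being lost without KO1 uninduced replicate 1 (−1.06) or 3 (−1.09). In stimulated cells *Gpx8* (log2 fold change 1.08, SE 0.0548, edgeR adjusted p = 5e-16) and *Gstm1* (log2 fold change 1.01, SE 0.0523, edgeR adjusted p = 7.95e-16) were higher in clone 1, the latter below the threshold in 4 leave-one-out fits at 0.99 to 1.00. *Slc7a11* and *Txnrd1* were not called, at −0.71 (edgeR adjusted p = 0.00102) and −0.70 (edgeR adjusted p = 3.11e-14), with clone 1 below clone 2 in every stimulated library for both.

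Other genes of the pathway were taken from 9 lists of 93 genes, of which 82 were tested. The lists were chosen with earlier results of these data known, so that their shares below are descriptive only. In stimulated cells 16 were called higher and 7 lower than WT in clone 1 (28.0%, against 19.0% of all genes) and likewise 16 and 7 in clone 2 (28.0%, against 16.9%). Called higher in both stimulated clones were 10 of the 82 (12.2%, against 5.26% of all genes) and lower in both 5 (6.10%, against 5.77%). Values are given here for genes called in the same direction in both stimulated clones and for *Hmox1*, not for the rest of the lists. Among other NRF2 targets, *Ephx1*, microsomal epoxide hydrolase, had 92.2 ± 4.76 CPM (SD, n = 3) in stimulated WT, 252 ± 11.9 in clone 1 and 379.7 ± 14.1 in clone 2 (log2 fold changes 1.45 and 2.04). *Abcc4*, an efflux transporter, was above WT by 2.19 and 2.23, *Osgin1* by 1.40 and 2.099, and *Aox1*, aldehyde oxidase, by 1.22 and 1.36 on the log2 scale. *Cbr1*, carbonyl reductase, was lower (log2 fold changes −4.81 and −1.58). *Hmox1*, heme oxygenase and a widely used NRF2 readout, was not called, at −0.38 (edgeR adjusted p = 1.83e-05) in clone 1 and 0.47 (edgeR adjusted p = 8.76e-07) in clone 2. The repressor *Bach2* was lower in both, with 3.84 ± 0.256 CPM (SD, n = 3) in stimulated WT and 0.387 ± 0.282 and 0.444 ± 0.0812 CPM in the clones. Before stimulation, log2 fold changes against WT in clones 1 and 2 were −5.08 and −1.50 for *Cbr1* and −1.15 and −2.09 for *Bach2*. They were 0.29 and 0.54 for *Ephx1*, 0.58 and 0.49 for *Abcc4*, −0.42 and −0.66 for *Osgin1* and −0.29 and −0.75 for *Aox1*. In the WT response, log2 fold changes were −2.13 for *Ephx1*, −1.13 for *Abcc4*, −1.73 for *Osgin1* and −1.39 for *Aox1*. For *Cbr1* and *Bach2* they were −0.53 and 0.65.

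Superoxide enzymes other than *Sod1* were called in the same lists. *Sod2*, the mitochondrial dismutase, had 107 ± 5.77 CPM (SD, n = 3) in stimulated WT, 475 ± 15.1 in clone 1 and 397 ± 12.4 in clone 2 (log2 fold changes 2.16 and 1.90). *Sod3*, the secreted dismutase, had 569.7 ± 19.1, 2012 ± 106 and 2120.5 ± 77.2 CPM (SD, n = 3; 1.82 and 1.90). *Xdh*, xanthine dehydrogenase and a source of superoxide, was higher by 3.80 and 2.66 on the log2 scale, and the metallothionein *Mt1* by 1.64 and 2.15. Of membrane transferases, *Mgst1* was higher by 2.66 and 1.62, whereas *Ptges*, prostaglandin E synthase, had 225 counts in stimulated WT and 1 and 4 in stimulated clones 1 and 2, and *Alox5ap* was lower (log2 fold changes −1.57 and −2.99). In glutathione turnover *Oplah* was higher (1.59 and 1.24) and *Dpep1* lower (−1.57 and −1.16). Before stimulation the log2 values were 0.84 and 0.30 for *Sod2*, 1.14 and 0.90 for *Sod3*, 2.44 and 2.41 for *Xdh*, and 0.29 and 0.86 for *Mt1*. For *Ptges* the fitted values were −5.43 and −5.51, for *Mgst1* 0.63 and −0.95, and for *Alox5ap* 1.71 and −0.09. For *Oplah* they were 0.42 and 0.30, and for *Dpep1* −0.80 and −0.12. None of the 9 other thioredoxin and glutaredoxin genes was called in either stimulated clone, against 19.0% (clone 1) and 16.9% (clone 2) of all genes.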

How the data were processed

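RNA sequencing libraries from 18 samples (3 per group) were prepared with poly(A) selection and paired-end reads of 150 bp, per the labels and the study's methods. The authors aligned the reads with HISAT2 to GRCm38 (mm10) and deposited 1 table of raw counts per gene, not normalized and not pooled; for the counting program, annotation and use of strand, the sources used here name none. All 18 columns of counts were matched to samples by name, and no column was left over.

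CPM here are counts scaled to 1000000 per library after TMM normalization. Genes were kept by edgeR's filterByExpr (minimum count 10; 14317 of 54532 genes) and fitted in a single model of the 6 groups with the quasi-likelihood test of edgeR 4.0.16 (robust; R 4.3.3). P-values were adjusted by Benjamini-Hochberg over all tested genes in each of 11 comparisons. Each SE is the absolute log2 fold change divided by the square root of the F statistic of its test. It is thus approximate, and can be too small for genes with few counts in a group. The study's methods use DESeq2 with the same thresholds; DESeq2 1.42.0 was run as an alternative, together with other size factors, filters, the fit of the compared groups only, a replicate block, no fold threshold and each library left out. Intervals of ratios are 95% exact intervals over summed counts, which cover counting error only and not the spread between libraries. The code was tested on simulated counts. Replicate pairs differed by more than counting noise (chi-square per degree of freedom 3.13 to 14.6).

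The 48 genes and all lists were chosen with earlier results of these data known. Genes named in full were 12 key pathway genes and, in each comparison, up to 6 called genes of at least 5 CPM with the largest fold change and no overlap; others are named as members or as related genes called in both stimulated clones, and *Hmox1*, *Pgd*, *G6pdx* and *Mthfd2* were singled out after their values were seen. Exon overlap was read from GENCODE M21, in which 44 of the 48 genes had the coordinates of the table.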

Additional observations from a re-analysis of the deposited data

Results flagged for a closer look

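These values mark genes whose response to stimulation differed between a clone and WT, or whose level differed between the clones, by a test of the difference itself (edgeR, adjusted p below 0.05 and absolute log2 difference above 1). The response of clone 1 exceeded that of WT for *Gclc* (1.74), *Nqo1* (2.12), *Gsta3* (2.82), *Gstm1* (1.44) and *Gstt1* (1.09). The response of clone 2 exceeded that of WT for *Slc7a11* (2.33), *Gclc* (1.84), *Gclm* (1.31), *Srxn1* (2.11), *Nqo1* (2.60), *Gsta3* (4.05) and *Gstm1* (1.30). Both sets share the same WT libraries.

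Uninduced clone 1 differed from clone 2 in *Gsta3* (1.82), *Gstt3* (4.84) and *Gsto2* (−1.24). Stimulated clone 1 differed from clone 2 in *Prdx6* (−1.05), *Gpx8* (1.08), *Gstm1* (1.01), *Gstm7* (2.63), *Gstt2* (−1.18) and *Gstt3*, where clone 2 had 2 counts (fitted value 5.64, which depends on the prior count). Of these calls that of *Gstm7* was lost in 4 settings, among them the replicate block (2.58) and without KO1 stimulated replicate 3 (1.73), that of *Gstt2* in 3 (−0.89 without KO1 stimulated replicate 1), and that of *Gsto2* without KO1 uninduced replicate 1 (−1.06) or 3 (−1.09).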

How the results depend on the processing

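Of 90 called values of antioxidant genes over the 11 comparisons, 73 were called under every alternative that could be run. Of 1092 values of the genes given in full, 1073 kept their direction and their side of the threshold, 10 lost the call, 6 gained it and 3 changed sign. The sign changes were all of uncalled values and came with a library left out: *Slc7a11* in the WT response ranged from −0.31 to 0.29 (0.29 without WT uninduced replicate 3), and in stimulated clone 2 against WT *Nfe2l2* ranged from −0.0804 to 0.0109 (without WT stimulated replicate 2) and *Sod1* from −0.0394 to 0.00665 (without KO2 stimulated replicate 1). The cause was not tested.

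With adjusted p alone and no fold threshold, which by construction calls more, the counts of antioxidant genes called were 30, 26 and 31 in the responses of WT, clone 1 and clone 2, 22 and 32 in uninduced clones 1 and 2 against WT, 24 and 25 in stimulated ones, 19 and 19 for the differences in response, and 28 and 26 between the clones, uninduced and stimulated. Leaving out 1 library gave 10 to 11, 9 to 14 and 12 to 14 in the 3 responses, 4 to 8 and 10 to 14 in uninduced clones against WT, 11 to 12 and 9 to 10 in stimulated ones, 5 to 7 and 7 to 7 for the differences, and 2 to 4 and 3 to 6 between the clones. The count for uninduced clone 1 was 8, in place of 5, without WT uninduced replicate 3, and that between stimulated clones was 3, in place of 6, without KO2 stimulated replicate 1, with other numbers of genes passing the filter. The difference in response of *Slc7a11* in clone 1 was called in 6 settings, at 1.01 to 1.16.

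Replicate numbers are shared by the groups, but the deviations of libraries with the same number had correlations of −0.0768 to 0.0590 over 45 pairs of libraries, and in 15 of these 45 comparisons of a library with those of another group the same number correlated best, so the numbers were not taken as pairing. With the replicate block, 9 genes in place of 10 were called in uninduced clone 2 against WT and 5 in place of 6 between stimulated clones, with the other counts at 11, 12, 12, 5, 10, 9, 5, 7 and 3.

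Genes with few counts set the limits: *Gsta1*, *Gsta3*, *Gstm6*, *Gstm7*, *Gstp2*, *Gstt2* and *Gsto2* gave 11 of the 17 lost calls.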

Other observations

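*Gsr*, *Txnrd1* and *Nqo1* use NADPH, and a list of 10 genes linked to its supply had 9 of them tested. The list is not confined to enzymes that make NADPH themselves. On stimulation, 4 were called higher and 1 lower in clone 1 (*G6pdx*, *Idh1*, *Mthfd2* and *Pgd*, and *Aldh1l1*; 55.6% of 9, against 16.7% of all tested genes), 3 higher and 2 lower in clone 2 (*G6pdx*, *Mthfd2* and *Pgd*, and *Aldh1l1* and *Idh2*; 55.6%, against 17.7%), and 1 higher and 1 lower in WT (*Mthfd2* and *Aldh1l1*; 22.2%, against 19.9%). By the test of the difference in response, 3 exceeded WT and 1 was below it in clone 1 (*Idh1*, *Me1* and *Pgd*, and *Mthfd2*; 44.4%, against 8.81%), and 1 was above and 1 below in clone 2 (*Pgd* and *Mthfd2*; 22.2%, against 7.85%), with medians over the 9 genes of 0.26 and −0.02. The response of *Pgd*, 6-phosphogluconate dehydrogenase, exceeded that of WT in clone 1 (difference in log2 fold change 1.93, edgeR adjusted p = 1.88e-20) and clone 2 (difference in log2 fold change 1.76, edgeR adjusted p = 1.85e-19). *Mthfd2*, a mitochondrial folate enzyme, responded less than in WT in clone 1 (difference in log2 fold change −1.15, edgeR adjusted p = 1.12e-07) and clone 2 (difference in log2 fold change −1.34, edgeR adjusted p = 3.83e-09). For *G6pdx*, glucose-6-phosphate dehydrogenase, these differences were 0.66 (edgeR adjusted p = 1.53e-09) and 0.83 (edgeR adjusted p = 1.38e-11). The mean level of *Pgd* was 501 ± 15.2 CPM (SD, n = 3) in uninduced and 373 ± 8.11 in stimulated WT, 294 ± 9.62 and 833 ± 48.7 in clone 1, and 250.3 ± 0.549 and 631 ± 11.7 in clone 2. These genes were picked from the list after their values were seen.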
